A study of Homo sapiens with 16 samples.

Results

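H358 is an established human lung cancer cell line, derived from a tumour described as bronchioloalveolar carcinoma. It was 1 of 8 lung cancer lines in a study of growth on plastic and in Matrigel, together with A427, A549, H23, H460, H661, H1437 and H1703. The H358 data are the 2 arrays titled H358 2D and H358 3D, of 16 arrays in all, chosen by the cell line named in the labels and by no measured value. In 2D the untreated cells grew on tissue culture plastic. In 3D they lay on a thin Matrigel layer under medium that carried 2% Matrigel, a basement membrane extract. Density and growth medium were similar in both cultures, and each line gave 1 array per culture of the Affymetrix U133 Plus 2.0 GeneChip. The first question was which genes set H358 apart from the other 7 lines. The second was how H358 differed between the cultures, beside the same difference in each other line.

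Tumours of this kind resemble the cells that line the alveoli and small airways. Alveolar type 2 cells make surfactant under the control of the transcription factor NKX2-1, and airway secretory cells make mucins. Type I and type III interferons act through transcription factors that bind a short promoter element and switch on antiviral genes. Cells on a basement membrane extract can form rounded, polarised structures that plastic does not allow.

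Every value is a log2 ratio of a probe set, a group of short oligonucleotides for 1 transcript, to a reference of that probe set. A value of 1 is therefore a 2-fold level over the reference, and the level of 1 gene cannot be set against that of another. A probe set entered when at least 2 of the 16 arrays lay at or above its reference, and a gene is the mean of its entering probe sets, which left 15952 genes. Genes bright in H358 alone can enter through the 2 H358 arrays, and 142 did so. The H358 line mean was set against the 7 other line means with limma, and its 3D minus 2D difference against the 7 other differences in the same way. Genes were called where the p adjusted by Benjamini-Hochberg over all 15952 lay under 0.05. The spread came from the other 7 lines, and H358 was assumed to vary like them. Within H358 there was 1 array per culture and no replicate check, so a difference of at least 2-fold is a size and not a test. In bulk RNA, fewer cells of a type and less RNA per cell cannot be told apart.

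The 2 H358 arrays were alike, with a Pearson's r of 0.889 over the 15952 genes. Against the other lines, the correlations ran from -0.22 with an H1703 array to 0.302 with an H1437 array, and each of the 4 values with H1437 exceeded all of those with the remaining lines. These correlations run across genes, which are not independent replicates. The H358 arrays had the lowest medians of all probe sets on the 16 arrays (-0.27 in 2D and -0.28 in 3D, log2), and the median identity difference of H358 over all genes tested was -0.15. The probe sets for 18S ribosomal RNA differed between 3D and 2D by a mean of -0.81 in H358, beside -3.45 to -0.08 in the other lines. Their part in the results below was not tested beyond a fit with the 18S level as a covariate, in which 79 of the 101 response calls were kept.

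Against the other lines, limma called 225 genes, 1.41% of those tested. H358 was higher in 191 genes (1.2%) and lower in 34 (0.213%). Of the 191, 126 had a median below the reference in their probe sets, meaning that most arrays were dim, and 87 entered only with the help of the H358 arrays. Those 87 had to differ and are no measure of how distinct H358 is, whereas 104 entered without them. A dim probe set's difference is a difference from the level near background of the other lines.

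The genes highest in H358 had varied roles. DHRS2, a short-chain dehydrogenase, stood at 10.03 in 2D and 10.02 in 3D, against a lowest of -1.83, a median of -0.29 and a highest of 2.87 on the 14 other arrays. The difference of line means was 10.13 (SE 1.44, limma adjusted p = 0.0139). Leaving out single lines ended that call in 4 of 7 cases, with an adjusted p of 0.0916 without H460. MAEL, which acts in the piRNA pathway of germ cells, read 9.32 and 9.24, and the other arrays lay between -0.61 and -0.27. Its difference was 9.81, and it entered only with the H358 arrays, so that it had to differ. GTSF1, another piRNA gene, read 6.81 and 6.51, and only H1437 came above 1 among the other lines (highest 1.61). MAGEA8, a cancer-testis antigen, read 6.99 and 7.16 against -1.12 to -0.60. FMR1NB, also a cancer-testis gene, read 7.16 and 7.75 against -0.43 to -0.03.

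In the list of cancer-testis genes, 3 of 10 measured members were called higher in H358, beside 1.2% of all genes. GAGE1 and PAGE5, 2 of the 3, entered only through the H358 arrays and had to differ, so the count is no measure of the list. GAGE1 was at 3.36 and 2.99 while the other arrays reached at most -0.22. PAGE5 was at 2.65 in 2D and 0.92 in 3D, also above all 14 other arrays. SSX1 differed by 1.13 (limma adjusted p = 0.0254), but its probe sets did not act alike: with the probe set of the highest mean the difference was -0.20. PRAME and MAGEA4 lay far below their reference in H358, PRAME at -5.97 and -6.35 and MAGEA4 at -4.16 and -4.12, beside -6.28 to 1.75 and -5.66 to 4.90 in the other lines.

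Among the proteases, MMP13 (collagenase 3, which cleaves fibrillar collagen) was at 4.62 in 2D and 7.11 in 3D. The 14 other arrays lay between -0.96 and -0.82, so H358 was the single line above the reference. The difference was 6.77, and the gene entered only with the H358 arrays. KLK6, a kallikrein, read 7.38 and 5.57, and TMPRSS11E, a membrane serine protease, 6.26 and 7.60, with highest values elsewhere of 2.06 and 1.51, both in H1437. FGFBP1, a carrier that releases fibroblast growth factors from matrix, read 6.36 and 6.86 against at most 2.10. AIM2, a sensor of cytosolic DNA, read 6.70 and 7.44, and all other arrays lay between -0.88 and -0.62. COX7B2, a testis form of a cytochrome oxidase subunit, differed by 8.27, NFE4 by 7.82, EVA1A by 6.69 and CFI, the protease complement factor I, by 6.20. CFI in H358 (5.82 and 5.39) stood just above A549 in 3D (4.76). Leaving out a line ended 3 of these calls in most cases: 5 of 7 for NFE4, 6 of 7 for EVA1A and 6 of 7 for CFI. The highest adjusted p was 0.0757 for NFE4 without A549, 0.0950 for EVA1A without A427 and 0.108 for CFI without H1703 (limma). Of the 15 highest genes, 14 were dim in their median, 8 entered only with the H358 arrays, and 13 rested on 1 probe set.

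**Figure D1:**
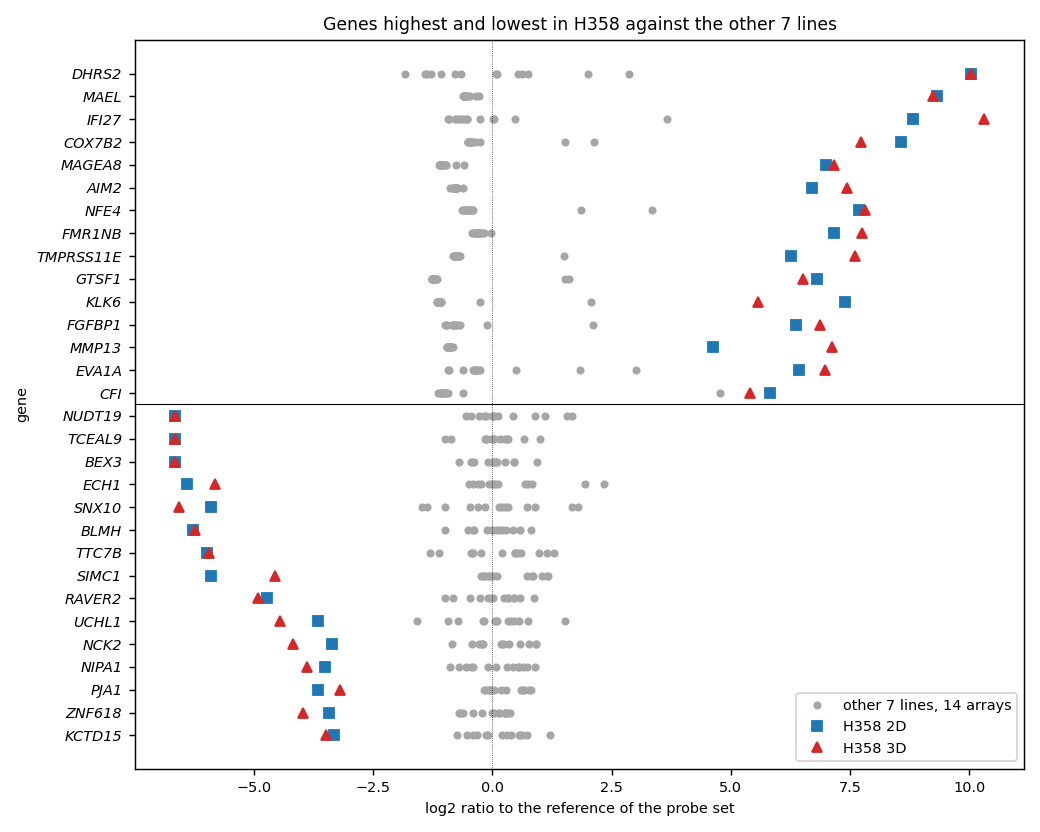
Log2 ratios of the 15 genes highest and the 15 lowest in H358 among called genes whose H358 arrays lay outside the range of all 14 others. Squares are H358 in 2D, triangles H358 in 3D and grey points the 14 arrays of the other 7 lines. The 3 lowest genes sit at the floor of the deposited values in both H358 arrays, while the other lines scatter about 0.

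The genes lowest in H358 lay about their reference in the other lines and far below it in H358. NUDT19, a peroxisomal enzyme that breaks down coenzyme A, sat at the floor of the deposited ratios (0.01, or -6.64 on the log2 scale) in both H358 arrays. The other arrays lay between -0.55 and 1.68, so the level in H358 was at least 123-fold lower. TCEAL9 and BEX3, members of related gene families, were at the floor too, at least 102-fold and at least 101-fold lower. Values at the floor have no order among themselves. ECH1, an isomerase of fatty acid oxidation, read -6.40 and -5.81 against -0.49 to 2.33 (limma adjusted p = 0.0085). BLMH, a cysteine protease, read -6.27 and -6.24 against -0.98 to 0.82.

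SNX10, a sorting nexin of endosomes, differed by -6.33, TTC7B by -6.08, SIMC1 by -5.59 and RAVER2 by -4.87. NCK2, an adaptor between receptors and actin, differed by -3.91, NIPA1, a magnesium transporter, by -3.78, and PJA1, a ubiquitin ligase, by -3.68. Most of these genes were read by a single probe set (11 of the 15 lowest). ZNF618 and KCTD15 had several that pointed the same way, with differences of -3.64 and -3.58. Those of KCTD15 ran from -5.01 to -1.74, and its call was lost in 3 of 16 alternatives. UCHL1, a deubiquitinase known from neurons and neuroendocrine tumours, read -3.66 and -4.45 against -1.58 to 1.51. Its limma adjusted p of 0.0432 became 0.0945 without A549, and 4 of 7 fits that left out a line ended the call. The adjusted p also passed 0.05 for SNX10 without H1703 (0.0531), for NIPA1 without A427 (0.0600) and for KCTD15 without A427 (0.0523). In the wider neuroendocrine list UCHL1 was the 1 of 14 measured members that was called, beside 1.41% of all genes.

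Interferon-stimulated genes lay high in H358. Of 62 genes listed, 57 were measured. The median identity difference was 2.29, against -0.15 over all genes tested, and 55 of the 57 were above 0. In the other lines the same median, each line against the rest, ran from -1.44 in H661 to 0.10 in H1437 and H1703. H358 was the highest of the 8 lines for 40 of the 57, where 11.5% of all genes had H358 highest. It was the lowest for none of them, beside 27% of all genes. Both H358 arrays lay above all 14 others for 25, where the share over all genes was 6.01%. limma called 4 of them higher and none lower, beside 1.2% and 0.213% of all genes, and 1 of the 4, MX2, entered only with the H358 arrays. The count of 40 is of levels in both cultures together. For the 25, the array from plastic alone already lay above all 14 others. That did not hold for every member, and TRIM22 was at -1.03 on plastic.

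IFI27, an interferon-induced mitochondrial and nuclear membrane protein, was at 8.83 in 2D and 10.30 in 3D. The other arrays had a lowest of -0.93, a median of -0.57 and a highest of 3.67 in H1437 3D. The difference was 9.73 (SE 1.11, limma adjusted p = 0.00429), and the call was kept in all 15 alternatives. RSAD2, the antiviral enzyme viperin, was at 3.66 and 5.11 against -0.62 to -0.14, a difference of 4.83 (limma adjusted p = 2.83e-05). MX2, a dynamin-like restriction factor of viruses, was at 2.67 and 5.22 against -1.18 to 0.56. SAMD9L was the other call (difference 3.29, limma adjusted p = 0.0457), which leaving out single lines ended in 6 of 7 cases, with 0.103 without H1703. IFI44L read 7.05 and 8.84 and MX1 3.59 and 6.69, but 1 or more arrays of other lines reached 4.74 and 4.32, and their differences of 7.96 and 4.89 did not pass (adjusted p = 0.176 and 0.337, limma). DDX60, a helicase of RNA sensing, read 4.60 and 5.25 against at most 2.04, with an adjusted p of 0.0878 (limma).

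In Matrigel the list was higher again. The median 3D minus 2D difference over the 57 was 1.01 in H358, against 0.03 over all genes tested. Of the 57, 53 were above 0, 29 were at least 2-fold higher in 3D (18 after quantile normalization) and none was at least 2-fold lower. Over all genes, H358 was at least 2-fold higher in 4.06% and at least 2-fold lower in 2.67%. Elsewhere the median ran from -0.07 in H1703 to 0.35 in A549, and 1 to 10 members were at least 2-fold higher. The H358 difference lay above those of the other 7 lines for 34 of the 57, beside 14.3% of all genes. Without any filter, 28 of the 60 members with a probe set were at least 2-fold higher, with a median of 0.96, beside 2.94% of all genes.

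**Figure D2:**
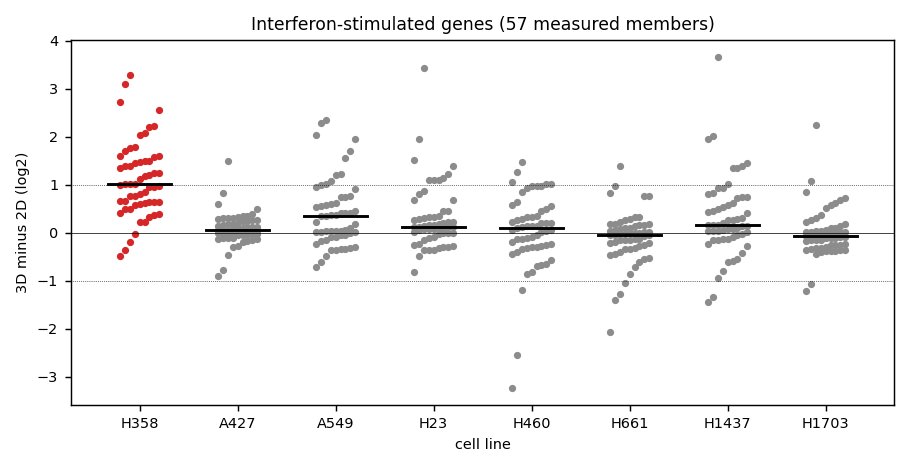
Differences of 3D minus 2D (log2) for the 57 measured interferon-stimulated genes in each line. Each point is a gene, the black bar is the median of the line, and dotted lines mark 2-fold. The bar of H358 stands at 1.01 and those of the other lines between -0.07 and 0.35.

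Against the other lines, limma called the response of 6 of the 57, all more positive in H358, where 0.633% of all genes were called in either direction. TRIM22, an antiviral ubiquitin ligase, went from -1.03 in 2D to 2.24 in 3D, a difference of 3.27, while the other lines lay between -0.86 and 0.13. The H358 difference exceeded their mean by 3.45 (SE 0.36, limma adjusted p = 0.00271). MX1 differed by 3.10, beside 1.02 in H1437, the next line (limma adjusted p = 0.025). MX2 differed by 2.55 against at most 0.32 (limma adjusted p = 0.0108). XAF1, a pro-apoptotic partner of XIAP, went from 1.09 to 3.30 with at most 0.31 elsewhere (limma adjusted p = 0.0112). IFI44L differed by 1.79 against at most 0.16 (limma adjusted p = 0.00828) and RSAD2 by 1.46 against at most 0.31 (limma adjusted p = 0.0332). The calls of MX1 and RSAD2 were lost in 5 and 7 of 7 fits that left out a line, with adjusted p of 0.0743 and 0.0865 without H1703. After quantile normalization MX2, XAF1, IFI44L and RSAD2 missed the threshold (adjusted p of 0.0568, 0.0735, 0.0504 and 0.378, limma) and TRIM22 and MX1 passed.

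Other members had differences in H358 above those of all other 7 lines without passing the test. IFITM1, a membrane protein that blocks virus entry, went from 3.80 to 6.52 in H358, and other lines differed by 0.24 to 2.36 (adjusted p = 1.0, limma). OAS1 and OAS2, which make the activator of RNase L, differed by 2.03 and 2.08, with at most 1.11 and 1.36 elsewhere (adjusted p = 0.236 and 0.212, limma). IFIT1, which binds viral RNA, went from 2.18 to 3.77, with differences of at most 1.49 elsewhere (adjusted p = 0.825, limma). EPSTI1 went from 2.0 to 3.76, with differences of at most 0.93 elsewhere (adjusted p = 0.865, limma). IFI6 was high on plastic and no higher in Matrigel (4.59 and 4.22), and ISG15 was at 2.91 and 3.28, so the members did not all differ alike.

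Among the components that produce or sense interferon, 2 transcription factors of the response had higher ratios in 3D. IRF9 went from 2.55 to 3.91 and IRF7 from 2.43 to 3.44. IFNL1, a type III interferon, went from -0.30 to 0.71, a difference of 1.01, while the other lines lay between -0.26 and 0.05. Its limma adjusted p was 0.0496, and it was lost in all 7 fits that left out a line (up to 0.117 without H1703). IFNAR2, a subunit of the type I receptor, lay at -1.93 and -1.37 in H358, below all 14 other arrays (lowest -0.72), without passing the test (adjusted p = 0.324, limma). IFNAR1 was at -0.18 and -0.15 and IFNLR1 at 0.31 and 0.08, both inside the range of the others. HLA class I and peptide-loading genes, which interferons also raise, had a response median of 0.33 in H358, beside 0.45 in A549. The NF-kB and cytokine list had 0.22 in H358, inside the range of -0.64 (H460) to 0.90 (A549) of the others.

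Promoters of the list were read from RefSeq sequences on GRCh38.p14, in windows of 300 bases. The motif searched, GAAA followed by any 2 bases and again GAAA, is the core of the interferon-stimulated response element, and both strands were searched. Overlapping matches were counted. It was found in 32 of the 48 members with a promoter entry (66.7%), and in 1255 of all 35116 promoters (3.57%). The 2 shares have unlike units. The first counts a gene with a match in any of its promoters, and the second counts single promoters. A member with several promoters thus had more chances of a match. XAF1, OAS1 and IRF9, whose values are given above, had no match, and MX1 had a match but is not shown. The following stretches are of members picked among those with a match, with their values in view. They run 5′ to 3′ on the strand of the gene and end before the start site. Capitals mark the motif where it lies wholly before the start, and a match on the opposite strand reads TTTC, 2 bases, TTTC. They lie at chr1:78620264-78620404 (IFI44L), chr2:6877612-6877661 (RSAD2), chr11:313980-314039 (IFITM1), chr14:94110608-94110670 (IFI27), chr10:89392487-89392549 (IFIT1) and chr13:42992262-42992311 (EPSTI1, minus strand; the others are on the plus strand). Where a gene had several start sites, the first with a match is given.
IFI44L: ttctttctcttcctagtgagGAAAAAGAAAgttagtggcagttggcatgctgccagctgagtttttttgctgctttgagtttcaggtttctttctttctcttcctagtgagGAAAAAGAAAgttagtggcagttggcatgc
RSAD2: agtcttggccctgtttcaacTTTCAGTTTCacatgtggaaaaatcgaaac
IFITM1: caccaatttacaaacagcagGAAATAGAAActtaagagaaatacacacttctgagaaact
IFI27: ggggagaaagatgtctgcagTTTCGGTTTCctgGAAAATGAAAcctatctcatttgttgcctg
IFIT1: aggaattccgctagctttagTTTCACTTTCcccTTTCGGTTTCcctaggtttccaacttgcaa
EPSTI1: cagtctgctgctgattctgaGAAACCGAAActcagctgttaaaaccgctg
IFI44L carried the motif 164 and 73 bases before its start, in a repeated stretch. IFIT1 carried it on the opposite strand, 116 and 103 bases before its start, and IFI27 once on each strand, at 108 and 95. IFITM1 carried it 40 bases before its start, and a further match begins 6 bases before the start and runs past it, so that it is not shown whole and has no capitals. Among members with both a promoter and a measurement, the motif did not go with a larger difference. The 30 members with it had a median difference in H358 of 0.87, and 13 were at least 2-fold higher. The 14 without it had a median of 1.19, and 8 were at least 2-fold higher. A match is a description of these letters, and its absence from a window says nothing of the factor.

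Markers checked the cell type. Epithelial genes were high, with a median identity difference of 2.47 over 41 measured members, and 39 of the 41 were above 0. None was called by limma. H1437 had a median of 2.91 and A427 of 0.89, and the remaining lines lay at -1.02 or lower. CDH1, the epithelial cadherin, was at 5.88 in 2D and 6.53 in 3D, against -2.90 to 5.48. ESRP1, an epithelial splicing factor, was at 8.44 and 8.49, with another line at 8.23, and EPCAM at 4.29 and 4.36, with another line at 4.12. Among 7 measured keratins 1 was called, beside 1.2% of all genes called higher. It was KRT15 (3.11 and 3.94 against at most 0.81, limma adjusted p = 0.0105). The 30 mesenchymal genes had a median identity difference of -0.48, with 14 above 0 and none called. ZEB1, a repressor of epithelial genes, was at -2.07 and -3.23, and vimentin (VIM) at -1.84 and -2.49. Others lay the other way. SNAI2, a related repressor, was at 6.41 and 5.80 with at most 4.14 elsewhere. The matrix protein TGFBI and the ligand WNT5A had identity differences of 4.89 and 2.49, but both overlapped the other lines. TGFBI was at 2.73 and 1.78 against -6.64 to 2.65, and WNT5A at 1.80 and 3.21 against -2.42 to 3.25.

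Alveolar markers were present in part. NKX2-1 was at 5.07 and 5.40, with 1 line near it (highest 5.31), and its neighbour SFTA3 was at 8.34 and 10.10 against at most 8.69. FOXA2, a partner of NKX2-1 in lung, was at 5.70 and 5.17 against at most 4.95. The surfactant gene SFTPB lay at -0.12 and -0.09 and SFTPD at -0.32 and -0.12, no higher than the other lines. ABCA3, the lipid transporter of lamellar bodies, was at -3.06 and -1.77, and CEBPA at -2.27 and -2.85, both below all 14 other arrays. Of 9 leukocyte markers 1 was called, and of 11 markers of fibroblasts and endothelium 1, beside 1.41% of all genes. CORO1A, an actin-binding protein of leukocytes, was at 4.0 and 4.26 (limma adjusted p = 0.0387, and 0.084 without A549). Its call was lost in 5 of 7 fits that left out a line. KDR, the VEGF receptor of endothelium, was at 0.56 and 1.48 against at most -0.25, and entered only with the H358 arrays. The defining leukocyte gene PTPRC was at -0.59 and -0.54.

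Genes of the driver list that were measured (16) gave no call in either comparison. CDKN2B, an inhibitor of CDK4 and CDK6, was at 3.44 and 4.15, above all 14 other arrays (highest 1.0), with a limma adjusted p of 0.0736. CDKN2A was at 2.08 and 1.85, and SMARCA4, the ATPase of a chromatin remodeller, at 1.90 and 2.06, the highest of the 8 line means. CCND1 was at 1.53 and 1.20, CTNNB1 at 0.83 and 0.58, SMARCA2 at 0.65 and 0.61 and MYC at -1.53 and -1.48. MTAP, STK11, KEAP1, NFE2L2, RB1, NF1, MYCN, MYCL and CDK4 had identity differences between -0.30 and 0.49. None of the 16 differed 2-fold between the cultures of H358.

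Across all genes, H358 differed at least 2-fold between 3D and 2D in 1073 genes (6.73%), 647 of them higher and 426 lower in 3D. Only H661 had more, with 1181, and the others had 166 (A427) to 849 (A549). Over all genes tested, the H358 difference correlated with the mean difference of the other 7 lines at r = 0.423, and the same figure for the other lines ran from 0.156 to 0.433. Against the other lines, limma called 101 genes, 72 more positive in H358 (0.451%) and 29 more negative (0.182%). All 72 were also at least 2-fold higher in 3D, and 28 of the 29 at least 2-fold lower. Of the 101, 59 were dim in their median, and 40 were also called for identity. Among the response calls described here, MX2, MMP13, GPA33, ADGRF5, LCK, LINC02204 and PAGE5 entered only with the H358 arrays, since too few arrays of the other lines reached the reference. In the other lines the differences of these genes are of values near background. Their small spread there made a call easy, so these calls are no independent support for a distinct response.

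**Figure D3:**
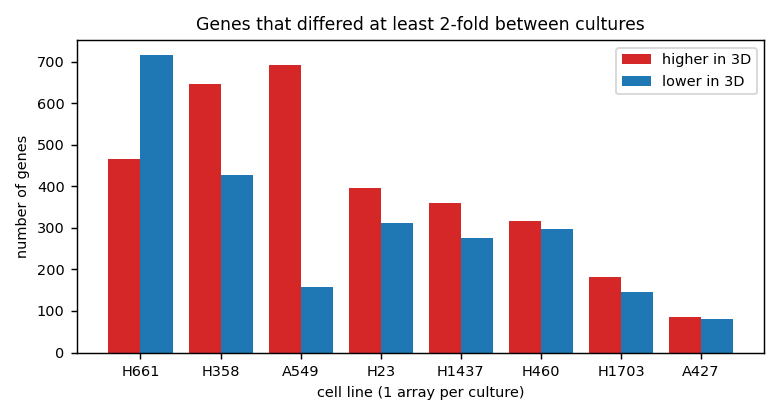
Number of genes, of 15952, that differed at least 2-fold between 3D and 2D in each line, from 1 array per culture. Red bars count genes higher in 3D and blue bars genes lower in 3D. H358 had 647 and 426, and H661 had more genes lower than higher.

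Among the genes whose H358 difference lay above those of the other 7 lines, with all probe sets in 1 direction, ST6GALNAC1 had the largest. ST6GALNAC1, a sialyltransferase that acts on mucins, went from 0.49 in 2D to 6.07 in 3D. One other line also differed strongly (4.08), and the difference from the other lines did not pass (adjusted p = 0.346, limma). TREM1, a receptor that amplifies inflammation in myeloid cells, went from 1.32 to 6.71, with up to 3.38 elsewhere. MUC15, a membrane mucin, went from -0.04 to 4.34, with up to 1.81 elsewhere (adjusted p = 0.0508, limma). ZNF750, a transcription factor of epidermal differentiation, went from 1.33 to 5.42, and NPNT, an integrin ligand of basement membranes, from 1.27 to 4.60. MUC1, a transmembrane mucin, went from -0.04 to 3.23 over 3 probe sets that differed by 3.04 to 3.43. These 6 genes, and LOC105375172 (0.67 to 5.43), differed in at least 1 other line too, by 1.78 or more.

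A second set moved in H358 with no other line near it. PCP4L1 went from 0.82 to 5.79, with the other lines between -0.39 and 0.38 (excess over their mean 4.94, SE 0.39, limma adjusted p = 0.001). GPA33, a surface glycoprotein of intestinal epithelium, went from 0.58 to 4.57, with the others between -0.02 and 0.06 (limma adjusted p = 0.000599). GPA33, and ADGRF5 below, entered only with the H358 arrays, so the limit given above holds for their calls. PCP4L1, BLNK and PRR15L were dim in their median, so the other lines gave largely values near background for them too. BLNK, an adaptor of B-cell receptor signalling, went from -1.16 to 2.98, with at most 0.13 elsewhere (limma adjusted p = 0.000599). NAPSA, a protease that processes surfactant protein B, went from 0.92 to 4.68, with at most 0.41 elsewhere (limma adjusted p = 0.001). ADGRF5, a receptor that regulates the surfactant pool, went from 2.52 to 5.85 over 2 probe sets (limma adjusted p = 0.0017). PRR15L went from 0.23 to 3.92 (limma adjusted p = 0.0112) and UNC5CL from 0.95 to 4.37 (0.0285, limma). In the fits that left out a line, the adjusted p of UNC5CL was up to 0.0806, without A427, and 5 of 7 ended the call. Quantile normalization ended the calls of both PRR15L and UNC5CL. Of the 15 highest genes, 8 were called.

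**Figure D4:**
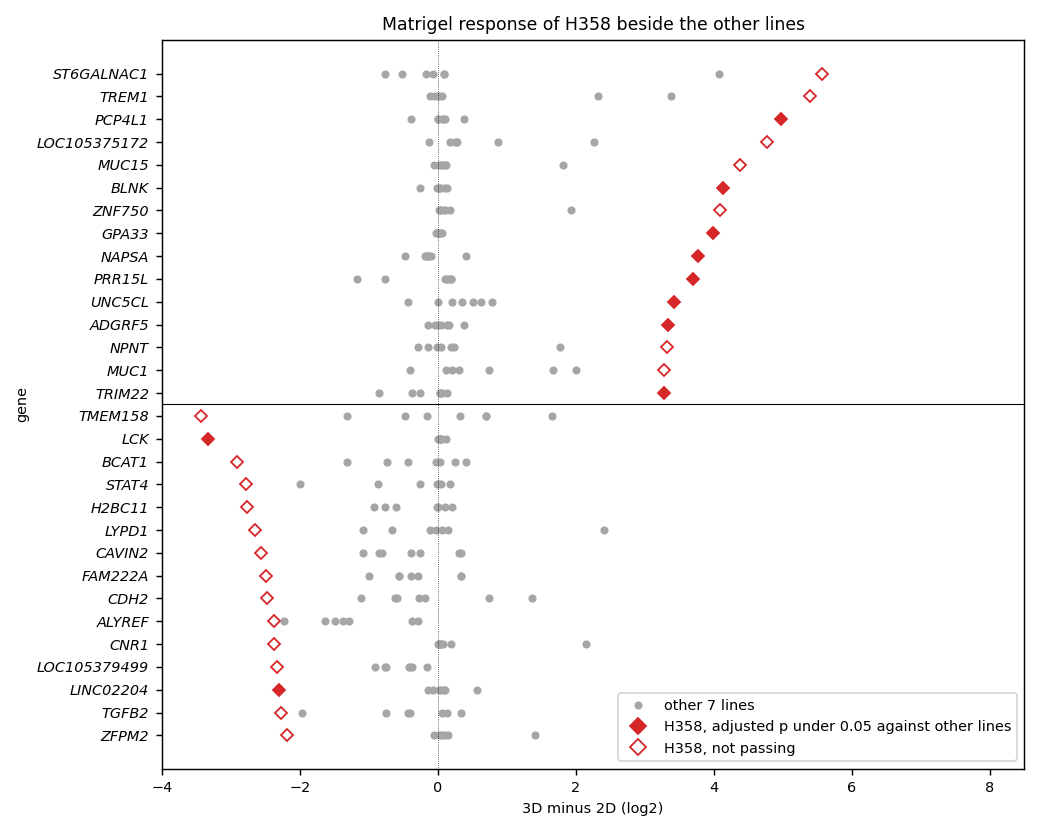
Differences of 3D minus 2D (log2) of the 15 genes highest and the 15 lowest in H358 among genes whose H358 difference lay outside those of the other 7 lines. Diamonds are H358, filled where limma called the difference from the other lines, and grey points are the other 7 lines. Of the 15 highest, 8 were called, and of the 15 lowest, 2.

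The lists placed these genes. Of 19 measured mucin, trefoil and mucin-glycosylation genes, 8 were at least 2-fold higher in 3D and none lower, with a median of 0.75, beside -0.02 to 0.10 in the other lines and 4.06% of all genes at least 2-fold higher in H358. In A549, 6 of the 19 were at least 2-fold higher. B3GNT6, which builds the core 3 chains of mucins, went from 0.47 to 3.49 with at most 0.06 elsewhere (limma adjusted p = 0.000996). MUC5B, a gel-forming airway mucin, went from 0.56 to 3.56 and MUC16 from 0.67 to 2.45. The trefoil genes TFF1 (-0.12 in both cultures) and TFF3 (-0.14 and -0.05) did not take part. Of 29 airway secretory genes, 6 were at least 2-fold higher, with a median of 0.16. A549 had 16 of the 29, with a median of 2.66, and H1437 had 5. CEACAM6 went from 3.64 to 8.67, and another line differed by 7.75. CEACAM5 went from 1.41 to 4.08 (limma adjusted p = 0.00271), but of its 2 probe sets 1 differed by 5.29 and the other by 0.04, so the gene rests on 1 of them.

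Of 18 measured members of the alveolar type 2 list, 6 were at least 2-fold higher and none lower, beside 4.06% and 2.67% of all genes in H358. NAPSA, HOPX, SFTA3 and MUC1 were among them, and ABCA3 differed by 1.29. HOPX and MUC1 are not particular to type 2 cells, so the count describes the list and not that cell type. HOPX, a homeodomain cofactor, went from 3.44 to 5.35, with at most 0.25 elsewhere (limma adjusted p = 0.0215). Its 2 probe sets differed by 0.90 and 2.93, and the call was lost without A427 (0.054) or H1703 (0.0563). In all, 5 of 15 alternatives ended the HOPX call, quantile normalization among them. Of 41 epithelial genes, 7 were at least 2-fold higher and none lower, with a median of 0.57, beside -0.02 to 0.22 elsewhere and 4.06% of all genes at least 2-fold higher in H358. A549 had more such epithelial genes, 10 of the 41. DSP, the desmosomal linker desmoplakin, went from 0.39 to 2.52, GRHL1, a grainyhead-like factor, from 1.03 to 3.01, PRSS8, a membrane protease, from 3.67 to 5.42 and TMC4 from 3.28 to 5.83. None of these was called. The grainyhead-like site AACCGGTT was in none of the 25 epithelial members with a promoter entry, and in 0.134% of all promoters. At so low a share a match among 25 members was unlikely from the start, so its absence says nothing of the factor. S100A14, a calcium-binding protein of epithelia, went from 1.36 to 4.55, with at most 0.30 elsewhere (limma adjusted p = 0.00204).

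The 15 lowest differences, among genes below the other 7 lines with all probe sets in 1 direction, were of genes with varied roles. LCK, a SRC-family kinase of T cells, went from 4.15 in 2D to 0.82 in 3D, with the other lines between 0.00 and 0.11 (limma adjusted p = 0.000334). LINC02204, a non-coding RNA, went from 3.53 to 1.23 (limma adjusted p = 0.00329). Both LCK and LINC02204 entered only with the H358 arrays. The remaining 13 of the 15 lowest were not called. TMEM158 went from -0.57 to -4.0, and BCAT1, an enzyme of branched-chain amino acids, from 4.23 to 1.32 over 4 probe sets that differed by -3.61 to -2.21. CDH2, the cadherin of mesenchymal and neural cells, went from 1.68 to -0.79, and the other lines differed by -1.11 to 1.36. CAVIN2, a protein of caveolae, went from 2.31 to -0.25, TGFB2 from 0.63 to -1.64 and STAT4 from 2.14 to -0.63. H2BC11, FAM222A, LYPD1, CNR1, ZFPM2, LOC105379499 and ALYREF differed by -2.76 to -2.18, and for ALYREF, an mRNA export adaptor, every line was lower (-2.22 to -0.28).

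Of 30 mesenchymal genes, 5 were at least 2-fold lower and 1 higher, beside 2.67% and 4.06% of all genes in H358. The median was -0.18, against -0.03 to 0.20 in the other lines. H23 and H1437 each had 3 members at least 2-fold lower. AXL, a receptor kinase, went from 0.36 to -1.27 (limma adjusted p = 0.0334), with probe sets at -3.03 and -0.24. The call was lost in 6 of 7 fits that left out a line (0.0832 without A427). SNAI1 differed by -1.38 and ZEB1 by -1.15. Of 20 TGF-beta target genes, 4 were at least 2-fold lower and none higher, beside the same shares of all genes. The median was -0.52, next to -0.56 in H23. H23 had 6 members at least 2-fold lower, and H661 and H1437 had 4 each. ID1 went from 1.44 to -0.21, ID3 from 0.38 to -0.99 and BMP4 from 3.04 to 1.5. PAGE5, given above for its level, differed by -1.73 (limma adjusted p = 0.00792).

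Mitosis and DNA replication genes had lower ratios in H358 3D. Of 36 mitotic genes, 19 were at least 2-fold lower, beside 2.67% of all genes, and all 36 were below 0, with a median of -1.05. Of 36 replication genes, 12 were at least 2-fold lower, again with all below 0, and the median was -0.81. H661 came close, with medians of -0.96 and -0.78 and 17 and 12 genes at least 2-fold lower. No member of either list was called against the other lines. Of 25 cell cycle inhibitors and G1 regulators, 6 were above 0, 1 was at least 2-fold higher and 3 were at least 2-fold lower, with a median of -0.33. The 1 higher was CDKN1A, an inhibitor of cyclin-dependent kinases, at -0.53 and 0.79. PLK1, a kinase of mitotic entry, went from 0.15 to -1.47, CDC20, an activator of the anaphase-promoting complex, from 0.07 to -1.5, and HMMR from -0.13 to -1.69. ORC1, which marks replication origins, went from 0.01 to -1.81, with at lowest -1.18 elsewhere. On plastic these 4 genes lay near their reference in H358.

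The metabolic and stress lists are given by their medians of the 3D minus 2D difference. Hypoxia-response genes had a median of 0.52, within 0.29 (H23) to 0.81 (H1437), with ANGPTL4 at -2.47 and 0.33 and NDRG1 at 0.95 and 3.65. Glycolysis genes had 0.04, below the 0.11 to 0.36 of the others. ARRDC4, an arrestin-like gene that responds to glucose, went from 1.48 to 4.61, with 0.45 to 4.15 elsewhere. PHGDH, PSAT1 and PSPH, the 3 enzymes of serine synthesis, differed by -1.65, -1.40 and -1.39 in H358. ATF4 target genes had a median of -0.39, inside the range of -1.35 (H661) to 0.13 (H23) of the others. In H358, 5 of these 27 genes were at least 2-fold lower, beside 23 in H661, 15 in H460 and 0 in H23. Heat shock genes had a median of -0.64, against -0.49 to -0.20, and ribosomal protein genes had -0.01. Of 23 matrix proteases and inhibitors, 4 were at least 2-fold higher, beside 4.06% of all genes in H358, and A549 had 5. MMP13 differed by 2.49, with at most 0.11 elsewhere (limma adjusted p = 0.00131), and MMP10 went from -1.62 to 1.32.

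**Figure D5:**
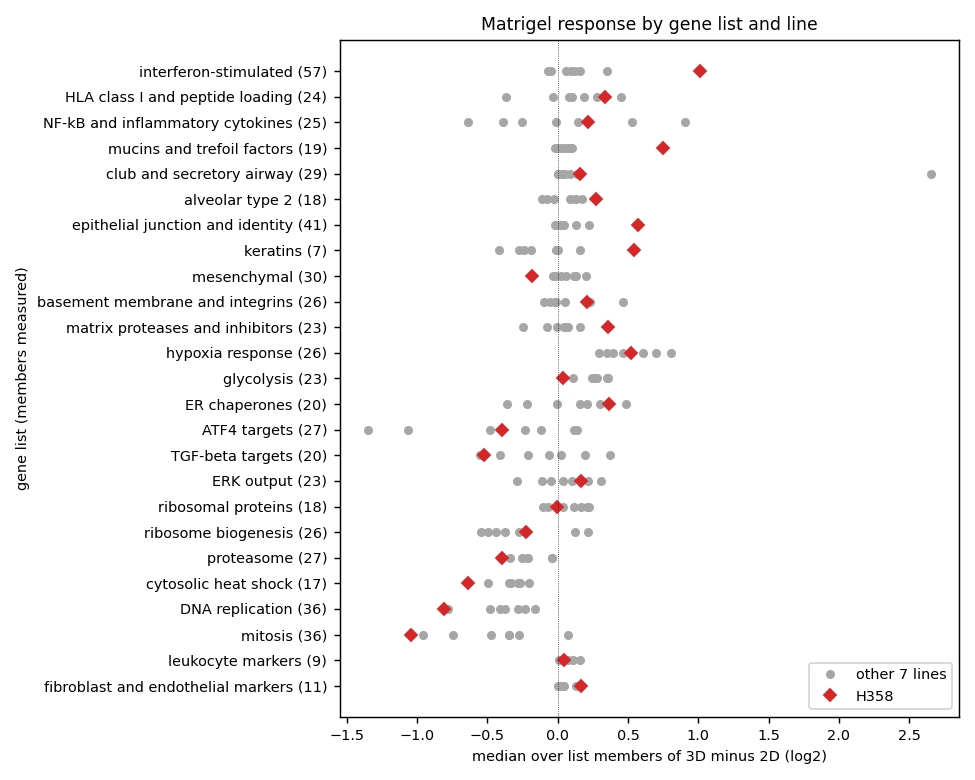
Median over the measured members of 25 gene lists of the 3D minus 2D difference (log2). Diamonds are H358 and grey points the other 7 lines, and the number of members is given after each name. H358 lies farthest right for interferon-stimulated genes (1.01), mucins (0.75), epithelial genes (0.57), keratins (0.54) and matrix proteases (0.35). The same holds for alveolar type 2 genes (0.27) and for fibroblast and endothelial markers (0.16). It lies farthest left for mitosis (-1.05), replication (-0.81), heat shock (-0.64), mesenchymal genes (-0.18) and glycolysis (0.04).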

How the data were processed

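The authors deposited 54675 probe sets as log2 ratios. Over the 16 arrays the median equals the reference for 63.5% of them and lies below it for 36.5%, as read from the values. The lowest ratio is 0.01, reached by 297 values. How probes were summarised and arrays normalized is not given in the sources used, and the number of arrays limits the precision. Per the labels' protocols, 200 ng of total RNA was used per array.

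Gene names came from the platform annotation, in which 41097 probe sets had 1 symbol, 1801 several and 11777 none. A median counted as at the reference within 0.001 (log2). Probe sets with 1 symbol that entered (31818) were averaged per gene, and 8333 of the 15952 genes had more than 1.

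The tests used limma 3.58.1 in R 4.3.3 (lmFit followed by eBayes with its trend option) on the 8 line means and on the 8 differences of 3D minus 2D. The cell line named in the labels pairs the arrays, and replicate numbers in the order of deposition pair nothing. The p-values measure the spread between lines. The steps were tested on simulated data.

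The rule for named genes takes, among called genes with both H358 arrays outside the other 14 and all probe sets in 1 direction, the 15 highest and 15 lowest identity differences. For the response it takes the 15 highest and 15 lowest H358 differences outside the other 7 lines, with all probe sets in 1 direction. It adds up to 4 members of each of 47 gene lists with the largest differences, and all driver genes. Any other named gene was picked with its values in view. The lists and this choice of line were made with earlier results of these data known. Alternatives changed the probe set rule, the filter, the scaling, the lines, the arrays, the variance trend, the 18S covariate and the block.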

Additional observations from a re-analysis of the deposited data

Results flagged for a closer look

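Among the 8 lines, H358 stood apart in 4 of 94 list medians examined, by the gap between it and the next line relative to the range of all 8. Chance alone flags about 1 in 20 groups, and 11 of the 94 had some line apart. That rate holds for independent groups not chosen from the data. The lists were written with earlier results of these data known, and some share members. The rate is therefore no benchmark for these flags. For interferon-stimulated genes this held for the identity median (2.29, next line 0.10) and for the response median (1.01, next line 0.35). It also held for the response medians of mucins and trefoil factors (0.75, next line 0.10) and of epithelial genes (0.57, next line 0.22).

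For 10 of the 30 genes named for their response, the 3D minus 2D difference of H358 differed from that of the other 7 lines by limma's adjusted p. The excess of H358 over the mean of the other lines was 4.94 for PCP4L1, 4.14 for BLNK, 3.97 for GPA33 and 3.87 for NAPSA. It was 3.86 for PRR15L, 3.45 for TRIM22, 3.25 for ADGRF5 and 3.13 for UNC5CL. For LCK it was -3.38 and for LINC02204 -2.39. GPA33, ADGRF5, LCK and LINC02204 entered only with the H358 arrays, so their calls are no independent support for a distinct response. PCP4L1, BLNK, PRR15L and TRIM22 were dim in their median, so their spread in the other lines also came largely from values near background. Only NAPSA and UNC5CL were not dim.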

How the results depend on the processing

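The identity calls (225; 191 higher, 34 lower) became 49 (31 and 18) when a gene's probe sets had to have a median at the reference. All 49 were among the 225, and genes dim in their median could not be tested there. Leaving out each line gave 194 to 399 (168 to 326 higher, 24 to 73 lower), the most without H1437. The response calls (101; 72 more positive, 29 more negative) became 12 (9 and 3) under that filter and 209 (141 and 68) with no filter. Quantile normalization gave 52, with 29 more positive, and leaving out each line 55 to 115 (42 to 87 and 13 to 28), with 55 without A427 and 58 without H1703. Without the pairing by line (no replicate block) 24 were called, 17 more positive and 7 more negative, all among the 101. Centring the arrays gave 250 identity and 104 response calls. After quantile normalization 367 genes in place of 647 were at least 2-fold higher in H358 3D, and 18 in place of 29 interferon-stimulated genes. The remaining 113 of 138 summary values stayed within 1.5 times. The cause of these shifts was not tested. SSX1 reversed to -0.20 with the highest-mean probe set and with the median filter. Of 42 called list or named genes, 27 kept the identity call in every alternative that could test them, and of 23 response calls 12 did, the unpaired fit aside. With 1 array per culture, small differences within H358 could not be separated from array error.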
